A study of Myotis pilosus with 4 samples.

Results

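miR-222-5p, miR-222-3p and miR-221-5p are mature arms of the miR-221 and miR-222 hairpins, and they are 3 (1.53%) of the mature miRNAs, conserved and bat-specific, listed for the hibernating bat *Myotis ricketti* (labelled *Myotis pilosus*). They were found by looking up their listed mature sequences among the sequenced tags, where a tag is a distinct small RNA sequence with its read count. They were picked with read counts of these libraries known, so the levels and ratios of the listed sequences are a description, and miR-221-3p, the fourth arm, was added to complete the miR-221 hairpin. In all, 4 small RNA libraries of adult, wild-caught bats were compared. HB was whole brain and HA was intra-abdominal white adipose tissue (WAT) of hibernating bats, and AB was whole brain and AA was WAT of active bats, which the labels call aroused. Each library was 1 pool of RNA from 3 bats. Brain and WAT were taken from the same bats, so HB and HA share their animals, as do AB and AA, and a direction seen in both tissues was not seen in separate animals. These libraries have no replicates and no p-values, and each difference is a difference between 2 libraries. The paper also ran qPCR on individual bats for some of these arms, and its outcome is set beside the state ratios below. Intervals are 95% exact intervals that cover counting error only. They cover neither the spread between bats nor the effect of PCR copies of a molecule, which are not independent. The active bats were captured in autumn and the hibernating bats in early spring, so state and season of capture cannot be told apart.

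A miRNA hairpin is cut by Dicer into a duplex of a 5p arm and a 3p arm. Usually the Argonaute protein keeps 1 arm as the guide and the other is degraded, and the arm that is kept can differ between tissues. Target choice rests mainly on the seed, bases 2 to 8 from the 5′ end, so a shift of the 5′ end by a base changes the seed. miR-221 and miR-222 lie close together on the X chromosome of mammals and are transcribed together. Their 3p arms share a seed and are the abundant arms. They are known from endothelial and smooth muscle cells, from adipose tissue and from proliferating cells, where they repress the cell cycle inhibitor p27.

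The libraries held 10007650 to 12159756 clean reads each, and tags were 18 to 30 nt long. The libraries differed in RNA length: tags of 18 to 20 nt made up 40.8% of the HB reads, 32.6% of the AB reads and 23.5% of those of either WAT library, and tags over 25 nt took 6.85% in HA and at most 0.937% elsewhere. Against the tissue labels, the 5 neuronal miRNAs of a marker list summed to 37171 and 46703 reads per 1000000 clean reads (RPM) in HB and AB and to 121 and 207 RPM in HA and AA, where miR-153-3p had 0 reads. The WAT libraries also held 17409 (HA) and 18253 RPM (AA) of the 3 muscle miRNAs miR-1-3p, miR-133-3p and miR-206-3p.

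The sequences are shown first, since both the identity of an arm and its count turn on the exact ends of the tag. Each is written 5′ to 3′ in DNA letters with the seed in capitals. The first line of an arm is the listed mature sequence, and the second is its most read tag where that is a different tag.
miR-222-5p, listed: gGCTCAGTagtcagtgta
miR-222-5p, most read: gGCTCAGTagtcagtgtagatc
miR-222-3p, listed and most read: aGCTACATctggctactgggtc
miR-221-5p, listed: aCCTGGCAtacaatgtag
miR-221-5p, most read: aCCTGGCAtacaatgtagattt
miR-221-3p, listed: cTACATTGtctgctgggttt
miR-221-3p, most read: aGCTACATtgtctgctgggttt

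Only miR-222-3p was listed by its most read tag. Both listed 5p sequences were 18 nt, the shortest length in the files, while the most read tags of all 4 arms were 22 nt. The listed miR-221-3p sequence lacked the first 2 bases of its most read tag, and its bases 2 to 8 were therefore TACATTG. The most read miR-221-3p tag, which is not among the listed sequences, carried the seed GCTACAT, as miR-222-3p did. These most read 3p tags were identical over the first 8 bases and at 11 of 22 positions in all. No other listed sequence had the seed of miR-222-5p (GCTCAGT) or of miR-221-5p (CCTGGCA) at its bases 2 to 8. When the most read tags of both arms were paired in silico with ViennaRNA, the miR-222 duplex had 19 base pairs and −28.9 kcal/mol, and the miR-221 duplex had 17 base pairs and −23.8 kcal/mol. These are predictions for the tag pairs alone.

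Counts were first taken from the tag identical to the listed sequence. miR-222-5p, the scarce arm of miR-222, had 98 reads (HB), 24 (AB), 133 (HA) and 35 (AA), or 8.06, 2.40, 11.5 and 3.06 RPM. It was high in both hibernating libraries and low in both active libraries. The interval of HA (9.65 to 13.7 RPM) was just above and partly overlapped that of HB (6.54 to 9.82 RPM), and the log2 ratio of HB over HA, scaled by clean reads as these levels are, was −0.52 (−0.91 to −0.13), beyond counting error. That of AB over AA was −0.35 (−1.16 to 0.44), so these neighbours could not be told apart at this depth.

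miR-222-3p, the abundant arm of miR-222, had 1357 reads (HB), 5218 (AB), 3277 (HA) and 2639 (AA), or 112, 521, 284 and 231 RPM. AB was the highest and HB the lowest, with both WAT libraries between them. None of these 4 intervals overlapped.

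miR-221-5p had 247 reads (HB), 120 (AB), 19 (HA) and 51 (AA), or 20.3, 12, 1.65 and 4.46 RPM. Brain was higher than WAT in both states, and none of these intervals overlapped either. The listed miR-221-3p had 2 reads (HB), 0 (AB), 2 (HA) and 2 (AA), so it was at or under the limit of 3 reads that a count of 0 allows, and no ratio is given for it.

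**Figure D1:**
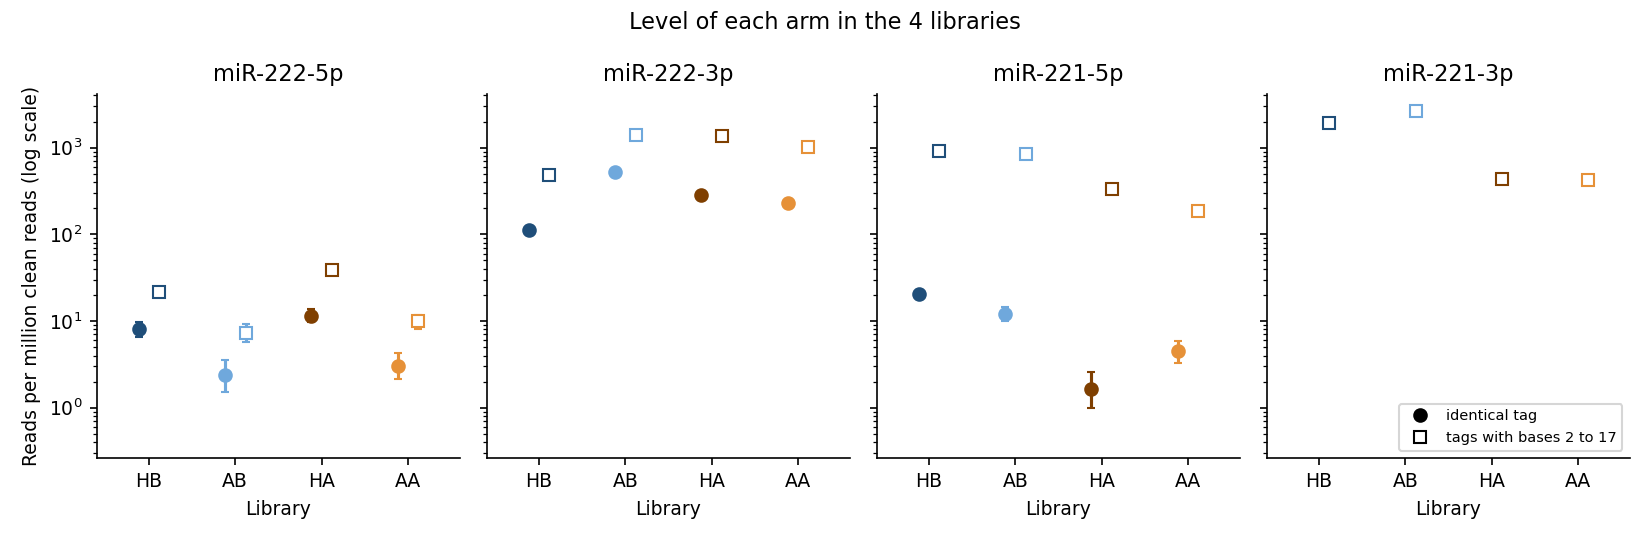
Level of each arm in the 4 libraries, in reads per 1000000 clean reads on a log axis. Filled circles are the tag identical to the listed sequence, open squares are all tags that contain its bases 2 to 17, and bars are 95% exact counting intervals (1 library per group). The listed miR-221-3p tag is not drawn, having 0 to 2 reads. miR-222-5p sits higher in HB and HA than in AB and AA under both rules, while for miR-221-5p HA (1.65 RPM) is below AA (4.46 RPM) by the listed tag and above it (335 against 185 RPM) by all tags.

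The first question was whether the arms differed between the hibernating and the active state in each tissue. Ratios were scaled by TMM over all listed miRNAs and are given as log2, where 1 means a level 2 times as high. In brain, miR-222-5p was 4.11-fold higher in HB than in AB (log2 ratio 2.04, 1.38 to 2.75). miR-222-3p was 3.82-fold lower in HB (−1.93, −2.02 to −1.85). The arms of this hairpin thus differed in opposite directions between the brain libraries. The qPCR of the paper, on individual bats, had the same directions in brain. Both differences were smaller there, and that of the abundant arm was not significant.

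miR-221-5p was 2.07-fold higher in HB (1.05, 0.73 to 1.38). Scaled by clean reads, this ratio was 0.76 (0.44 to 1.09) and no longer reached 1. With TMM, all 3 listed arms had log2 ratios of 1 or more in size, as did 62 of the 153 miRNAs with 10 or more reads in the pair (40.5%), and the median over the 153 was 0.01. Since the arms were chosen with such values known, nothing is read from the 3 of 3.

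In WAT, miR-222-5p was 4.80-fold higher in HA than in AA (2.26, 1.72 to 2.84). miR-222-3p was 1.57-fold higher in HA (0.65, 0.57 to 0.72). Here both arms of miR-222 were on the same side, and the 5p arm by more. In the qPCR of the paper, both arms were also significantly higher in hibernating WAT. There the scarce arm differed far less than in these libraries, and the abundant arm had the larger difference.

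miR-221-5p was 2.13-fold lower in HA by the listed tag (−1.09, −1.93 to −0.30). Of the listed arms, 2 had log2 ratios of 1 or more in size, beside 70 of 142 miRNAs (49.3%), and the median over the 142 was −0.29. The WAT ratios depended on the scaling: with TMM over the conserved miRNAs alone, every WAT ratio was 0.78 higher on the log2 scale, so that miR-222-3p stood at 1.43, miR-222-5p at 3.04 and miR-221-5p at −0.31 (−1.15 to 0.48), which is within counting error of no difference. Fewer cells of a type and less RNA per cell cannot be told apart in these whole tissues.

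**Figure D2:**
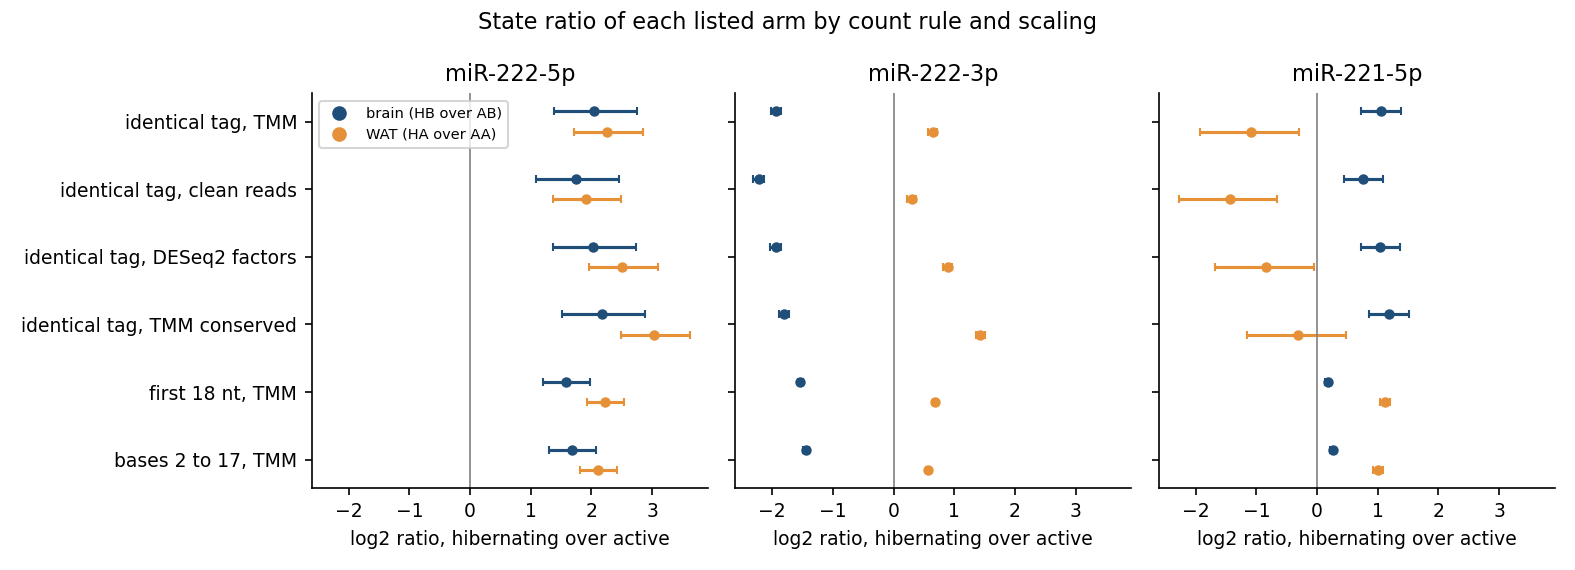
Log2 ratio of the hibernating over the active library for each listed arm, by count rule and scaling. Blue is brain (HB over AB), orange is WAT (HA over AA), and bars are 95% exact intervals for counting error. miR-222-5p lies above 0 in both tissues under each setting drawn, miR-222-3p lies below 0 in brain and above 0 in WAT, and the WAT ratio of miR-221-5p goes from −1.09 for the listed tag to 1.12 with all tags that share its first 18 nt.

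The arm balance compares reads of both arms within a library, so no scaling between libraries enters it. The listed tags do set an 18 nt 5p form against a 22 nt 3p form. Reads of 18 to 20 nt were 40.8% of all reads in HB and 32.6% in AB, and the part of tag length in the balance was not tested. With the listed tags, the 5p arm was 6.74% of the miR-222 reads for library HB (5.50 to 8.15%), 0.458% for AB (0.294 to 0.680%), 3.90% for HA (3.28 to 4.61%) and 1.31% for AA (0.913 to 1.82%). There were 13.8 reads of miR-222-3p per read of miR-222-5p (HB), 217 (AB), 24.6 (HA) and 75.4 (AA). The 3p arm was the abundant arm in each library, and the 5p share was larger in the hibernating library of both tissues.

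The odds of a 5p read were 15.7-fold higher in HB than in AB (log2 odds ratio 3.97, 3.31 to 4.69). They were 3.06-fold higher in HA than in AA (1.61, 1.06 to 2.20). These counting intervals do not overlap, so the shift between states was larger in brain beyond counting error, with 1 library behind each value. The brain shift combined a higher 5p level with a lower 3p level, and in WAT both levels were higher. In the qPCR of the paper, the order in WAT was the opposite, with the abundant arm differing by more than the scarce arm.

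Counting all tags of an arm left the directions in place, but the brain shift fell from 15.7-fold to 8.68-fold. In WAT it was 2.94-fold, against 3.06-fold with the listed tags. With all tags that contain bases 2 to 17 of the listed sequence, which allow other 3′ ends and a shifted 5′ end, miR-222-5p had 263 reads (HB), 73 (AB), 447 (HA) and 113 (AA). miR-222-3p then had 5843, 14071, 15613 and 11592 reads. No tag was counted for both 3p arms.

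The 5p share was 4.31% for library HB (3.81 to 4.85%), 0.516% for AB (0.405 to 0.649%), 2.78% for HA (2.53 to 3.05%) and 0.965% for AA (0.796 to 1.16%). The log2 odds ratio of the states was 3.12 (2.73 to 3.51) in brain and 1.55 (1.25 to 1.87) in WAT. With tags that begin with the first 18 nt the values were 3.11 and 1.54.

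The most read 22 nt tags of the arms, compared in an analysis added after the data were seen, gave 60 reads of miR-222-5p (HB), 12 (AB), 180 (HA) and 50 (AA). The 5p share was then 4.23%, 0.229%, 5.21% and 1.86%, and the log2 odds ratio was 4.27 (3.35 to 5.30) in brain and 1.54 (1.07 to 2.02) in WAT. The share was higher in both hibernating libraries under each of the 5 count rules. Which hibernating tissue had the larger 5p share did depend on the rule: the log2 odds ratio of HB over HA was 0.83 (0.43 to 1.23) with the listed tags, 0.65 (0.42 to 0.88) with bases 2 to 17, and −0.31 (−0.77 to 0.13) with the most read tags.

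**Figure D3:**
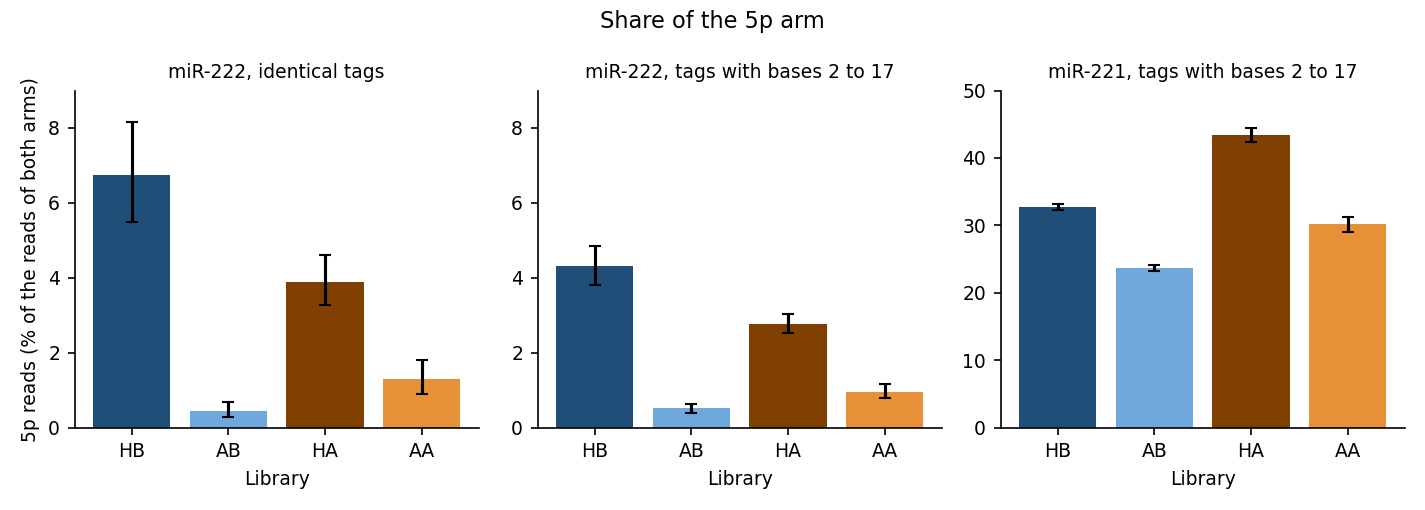
Share of the 5p arm among the reads of both arms of a hairpin, in percent, in each library. Bars start at 0 and error bars are 95% exact binomial intervals (counting error, 1 library per group), and the right panel has its own scale. For miR-222 the share is 6.74% in HB against 0.458% in AB and 3.90% in HA against 1.31% in AA with the listed tags, and the miR-221 share is also higher in HB than AB and in HA than AA.

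The arm balance of the other hairpins gives the background, with 0.5 added to each count for the ranks and for the numbers that reached 1. Both arms were listed for 46 hairpins, and 40 of them had 10 or more reads in both brain libraries. Of these, 23 (57.5%) reached a log2 odds ratio of 1 or more, in either direction, between the brain libraries, many of them with 0 to 3 reads of an arm, and 11 (27.5%) leaned toward 5p in HB. miR-222 had the largest of the 40. Among the 18 hairpins with more than 3 reads of each arm in both libraries, a limit added after the data were seen, it was again the largest, ahead of miR-432 (−2.27) and the neuronal miR-129 (−1.91), and 8 of the 18 (44.4%) reached 1.

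With bases 2 to 17 and the same limit, it was the largest of 36 hairpins, of which 8 (22.2%) reached 1. Without the limit it came after miR-503, which had a single 3p read in AB. The size of the miR-222 value in brain belongs to the values it was chosen on, so its rank is a description.

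In WAT, 17 of 38 hairpins (44.7%) reached 1, and 13 (34.2%) leaned toward 5p in HA. The first 3 by size were the hairpin listed as miR-7e, with 0 reads of its 3p arm in HA and 8 in AA, and 2 bat-specific hairpins with 3 reads or fewer of an arm in HA. miR-222 was 12th in size of the 38, or 2nd of the 12 with more than 3 reads of each arm, after the miRNA listed as miR-7c (3.10), and 4 of the 12 (33.3%) reached 1. With bases 2 to 17 and that limit it was 8th of 28, of which 12 (42.9%) reached 1. The WAT value was thus within the range of many other hairpins.

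miR-221 had to be counted by a wider rule, because its listed sequences caught few of its tags. The listed tag held 1.71% of the 25602 reads with bases 2 to 17 of miR-221-5p and 0.0100% of the 59942 of miR-221-3p, against 26.5% of 47119 for miR-222-3p and 32.4% of 896 for miR-222-5p. In miR-221-3p, 94.0% of the reads that contained bases 5 to 18 began 2 nt before the listed start, 5.77% began 1 nt before it and 0.126% began at it. In the other arms, 97.1% (miR-221-5p), 98.7% (miR-222-3p) and 99.2% (miR-222-5p) began at the listed start. Because the listed miR-221-3p starts late, its bases 2 to 17 left out 18 nt tags that begin at the most read start. Tags of 18 nt were 0.0611 to 0.147% of the miR-221-3p reads counted and 2.68 to 7.31% of the miR-222-3p reads. The miR-221 shares and the mix of the 3p arms therefore compare arms under unlike length limits.

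miR-221-5p by bases 2 to 17 had 11265 reads (HB), 8350 (AB), 3869 (HA) and 2118 (AA), or 926, 834, 335 and 185 RPM. It was lowest in AA, whereas the listed tag was lowest in HA. The state ratio was 0.26 (0.22 to 0.30) in brain and 1.0 (0.93 to 1.08) in WAT, where the listed tag gave 1.05 and −1.09. With this rule 44 of 183 miRNAs (24%) in brain and 78 of 166 (47%) in WAT reached 1 in size.

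The WAT sign of the listed tag rested on 19 and 51 reads. These were 0.491% of the arm in HA and 2.41% in AA, while in brain the listed tag was 2.19% of the arm in HB and 1.44% in AB. The most read 22 nt tag had 5960 reads (HB), 4978 (AB), 2448 (HA) and 1195 (AA), with log2 ratios of 0.27 in brain and 1.37 in WAT. All tags that begin with the first 18 nt gave 0.18 and 1.12.

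miR-221-3p by bases 2 to 17 had 23134 reads (HB), 26843 (AB), 5058 (HA) and 4907 (AA), or 1903, 2682, 438 and 429 RPM. It was the most read of the 4 arms in both brain libraries. The state ratio of this arm was −0.39 (−0.42 to −0.36) in brain and 0.18 (0.12 to 0.23) in WAT, both under 1 in size. Its most read tag alone had 9822, 12010, 2258 and 2330 reads, or 26420 in all.

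The 5p arm made up 32.7% of the miR-221 reads for library HB (32.3 to 33.2%), 23.7% for AB (23.3 to 24.2%), 43.3% for HA (42.3 to 44.4%) and 30.1% for AA (29.1 to 31.2%). The 5p arm was thus a far larger share than in miR-222, and it was again larger in the hibernating library of each tissue. Between the states, the log2 odds ratio was 0.65 (0.60 to 0.69) in brain and 0.83 (0.73 to 0.92) in WAT, where miR-222 had 3.12 and 1.55. Between the hibernating tissues, the log2 odds ratio of HB over HA was −0.65 in miR-221 and 0.65 in miR-222, but with the most read tags it was negative in both (−0.84 and −0.31). Between the active tissues (AB over AA) it was negative in both, −0.47 in miR-221 and −0.91 in miR-222. By size, miR-221 was 20th of 46 hairpins in brain and 21st of 42 in WAT, where 14 (30.4%) and 17 (40.5%) reached 1.

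The second question was how the arms differed between brain and WAT within a state. By the listed tags, miR-222-3p was 2.72-fold lower in HB than in HA (−1.44, −1.53 to −1.35) and 2.12-fold higher in AB than in AA (1.08, 1.02 to 1.15). With bases 2 to 17 the values were −1.78 and 0.36 (0.32 to 0.39). The tissue order of this arm was thus opposite in the 2 states under both rules, and these comparisons share the libraries of the state comparisons.

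miR-222-5p was 1.53-fold lower in HB than in HA (−0.61, −1.0 to −0.22), and for AB over AA (−0.44, −1.26 to 0.35) a difference was not detectable at the 24 and 35 reads of the listed tag. With more of the arm counted, AB over AA was −0.55 (−1.0 to −0.12) by bases 2 to 17 and −0.56 (−1.0 to −0.12) by the first 18 nt. Bases 5 to 18 gave −0.43 (−0.87 to 0.00334), which is within counting error of no difference. The most read tag alone, with 12 (AB) and 50 reads (AA), gave −1.96 (−3.0 to −1.03). miR-221-5p was 11.6-fold higher in HB than in HA (3.53, 2.86 to 4.29) and 2.52-fold higher in AB than in AA (1.33, 0.85 to 1.84). With bases 2 to 17 the ratios of miR-221-5p were 1.18 and 2.06. By the listed tags, 2 of the 3 arms reached 1 in size in both comparisons, where 76.1% (hibernating) and 74.8% (active) of 159 miRNAs did. By bases 2 to 17, all 3 did in the hibernating state, where 78% of 186 miRNAs did, and 1 of 3 in the active state, where 73.2% of 183 did. In the hibernating state, miR-222-5p was then at −1.13 with 263 (HB) and 447 reads (HA). By bases 5 to 18 it was at −0.52 with 263 and 448 reads, since TMM was computed anew for each rule.

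The 3p arms share a seed, so their sum and their mix were compared over all tags. miR-221-3p was 79.8% of the reads of both 3p arms for HB, 65.6% for AB, 24.5% for HA and 29.7% for AA. There were 3.96 reads of miR-221-3p per read of miR-222-3p (HB), 1.91 (AB), 0.324 (HA) and 0.423 (AA). miR-221-3p was thus the more read 3p arm in brain and miR-222-3p in WAT. The log2 odds ratio of miR-221-3p to miR-222-3p was 3.61 for HB over HA (3.55 to 3.67) and 2.17 for AB over AA (2.12 to 2.23). Between the states it was 1.05 (1.0 to 1.1) for brain and −0.39 (−0.45 to −0.32) for WAT. The 4 arms together held 3331 RPM (HB), 4930 (AB), 2165 (HA) and 1638 (AA).

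Tag lengths differed by arm and library. miR-222-3p tags of 18 to 20 nt took 29.0% of the reads of the arm for HB, 15.6% for AB, 11% for HA and 14.9% for AA, and 22 nt was its commonest length in brain and 23 nt in WAT. HB, where miR-222-3p was lowest, held the most short tags of the arm, and HB also held the most reads of 18 to 20 nt over all RNA. Tags of 18 nt made up 29.8 to 37.3% of miR-222-5p and 0.646 to 2.60% of miR-221-5p. Over 55 other conserved miRNAs the median was 1.28 to 2.07% per library, with the lowest at 0% and the highest at 92.4 to 95.1%. Among the longer miR-222-5p tags, 22 nt led in WAT (52.6% in HA and 47.8% in AA) and in HB (25.9%, against 22.1% at 23 nt). In AB 23 nt led (37.0%), with 73 reads of the arm.

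**Figure D4:**
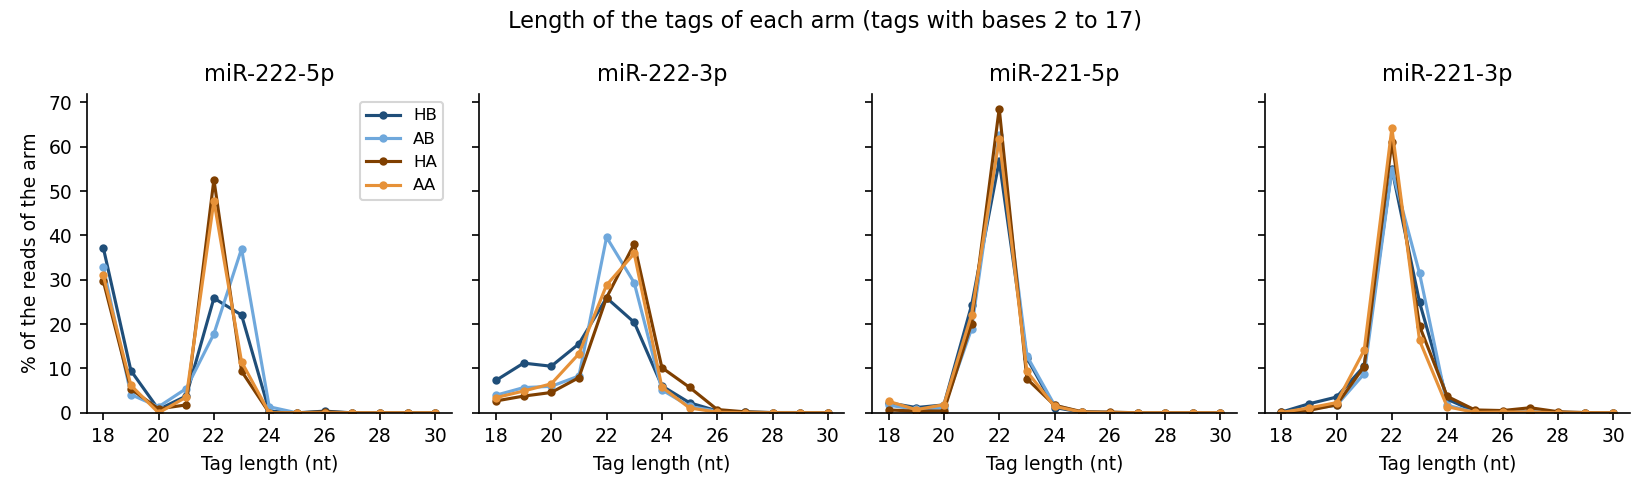
Length of the tags of each arm (tags with bases 2 to 17), as a percent of the reads of the arm, in each library. For miR-221-3p this rule leaves out 18 nt tags that begin at its most read start. miR-221-5p and miR-221-3p peak at 22 nt in all 4 libraries, miR-222-5p has a second group at 18 nt (29.8 to 37.3% of its reads), and miR-222-3p is shorter in HB, where 29.0% of its reads are 18 to 20 nt.

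The 3′ ends were grouped after the data were seen. Among tags with the first 18 nt of the most read tag of an arm, each was set against the commonest way in which the tags extend to the 3′ side, and tags that left this extension and ended in A or T were counted. No genome was used, so an A or T that the hairpin encodes was not told from an added base. In miR-222-3p such tags were 9.45% (HB), 6.04% (AB), 26.4% (HA) and 15.4% (AA) of the reads. In miR-221-3p they were 21%, 13.6%, 34.2% and 23.4%. Both 3p arms had more of these ends in the hibernating library of each tissue and most in HA.

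In miR-221-5p the shares were 6.69%, 4.24%, 5.78% and 5.20%, with overlapping intervals in HA and AA. In miR-222-5p they were 5.75%, 4.11%, 16.9% and 8.04%. The median over 71 other miRNAs was 9.03% (HB), 7.35% (AB), 12.7% (HA) and 7.93% (AA), and the share was higher in HA than AA for 57 of the 71 and higher in HB than AB for 51. The direction was therefore that of most other miRNAs.

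**Figure D5:**
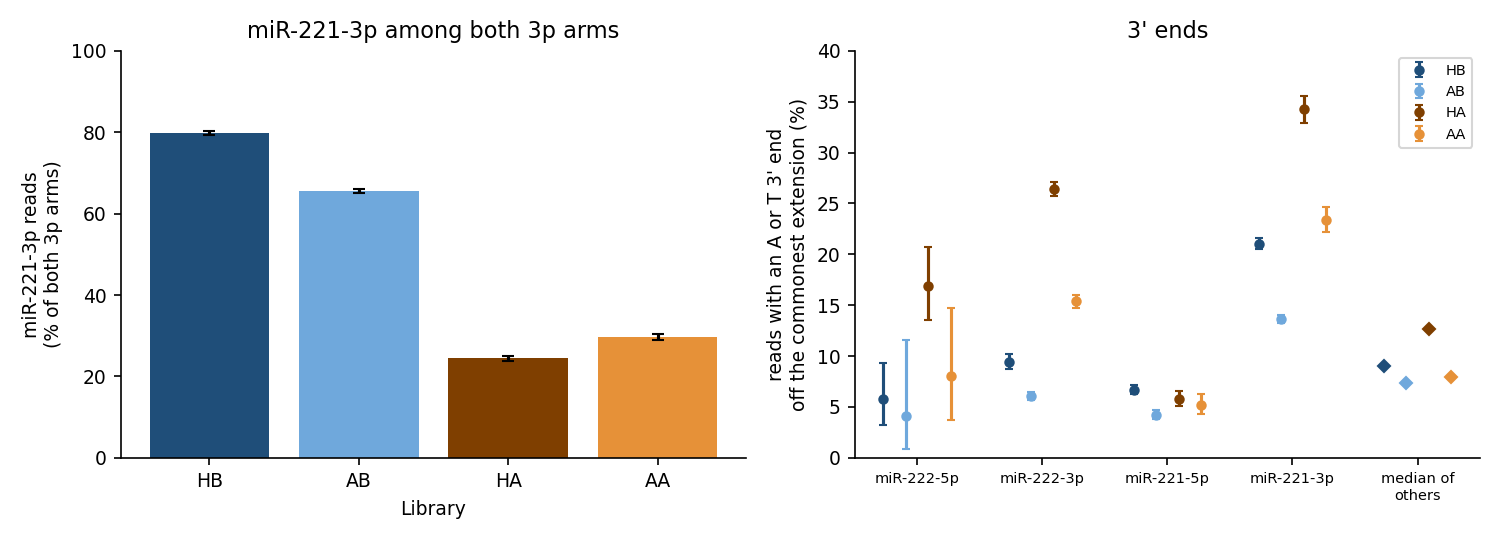
Left, miR-221-3p reads as a percent of the reads of both 3p arms (tags with bases 2 to 17), with bars from 0. Right, percent of the reads of an arm with an A or T 3′ end off the commonest extension, with diamonds for the median of 71 other miRNAs. Error bars are 95% exact binomial intervals. miR-221-3p is the larger part in HB (79.8%) and AB (65.6%) and the smaller in HA (24.5%) and AA (29.7%), and the A or T ends of both 3p arms are highest in HA.

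Other sequence variants were rare. Single-base variants with 10 or more reads numbered 42 for miR-222-3p, 28 for miR-221-5p and 45 for miR-221-3p, and none took more than 0.643% of the reads it was compared with. miR-222-5p had no variant with 10 reads.

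The miRNAs whose levels over the 4 libraries were most like those of each arm were named by the root mean square difference of centred log2 RPM among 129 miRNAs with 100 or more reads. For miR-222-3p they were miR-139-3p (0.39), the miRNA listed as miR-7d-5p (0.52), which has the let-7 seed GAGGTAG, and miR-24-3p (0.61). miR-139-3p had 296 reads (HB), 1430 (AB), 545 (HA) and 912 (AA), highest in AB and lowest in HB as miR-222-3p was. For miR-221-5p they were miR-7a-5p, also with that seed (0.41), miR-381-3p (0.41) and a bat-specific miRNA (0.46). For miR-222-5p all 3 were bat-specific miRNAs (0.32, 0.40 and 0.43), the first of them with 1439 reads (HB), 307 (AB), 1064 (HA) and 394 (AA).
Bat-specific miRNA most like miR-222-5p: aGAGGATGcattctgagtgg
Bat-specific miRNA among those most like miR-221-5p: aAAGAAACagaatttccggaga

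These names rest on the listed tags. By bases 2 to 17 the closest to miR-222-3p were miR-30c-3p (0.34), miR-30b-3p (0.47) and miR-140-3p (0.48), and the closest to miR-221-5p were miR-181c-3p (0.15), miR-181a-3p (0.36) and miR-221-3p (0.47), so none of the miRNAs named above for these arms was among the first 3. For miR-222-5p the first 3 were again bat-specific miRNAs, and 1 of them was shared.

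The arms of miR-222 were far apart by this measure. Among the 129, miR-222-3p was 50th in likeness to miR-222-5p (1.52). By bases 2 to 17, with 166 miRNAs compared, miR-221-5p and miR-221-3p were each 3rd in likeness to the other (0.47), and miR-222-3p was 46th to miR-222-5p (1.23). The arms of miR-221 thus varied together over the 4 libraries more closely than those of miR-222, and with 4 libraries this is a description only.

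Markers of cell types in which these miRNAs are known were read beside these values. The 4 vascular and stromal miRNAs (miR-145-3p, miR-199-3p, miR-199-5p and miR-10-5p) summed to 528 RPM (HB), 810 (AB), 13730 (HA) and 40297 (AA), nearly all of it miR-199-3p. They were lower in HB than AB for 3 of 4 and lower in HA than AA for 2 of 4, and miR-145-3p was higher in the hibernating library of both tissues. The 4 blood cell miRNAs (both arms of miR-486 and miR-142) summed to 28.1, 62.4, 253 and 268 RPM. This list was split: both arms of miR-486 were lower in HB than AB and both arms of miR-142 were higher. In WAT the 5p arms of both were slightly higher in HA than AA, and the 3p arms were lower. The 3 muscle miRNAs summed to 1948 and 1605 RPM in HB and AB. Of these, miR-1-3p was higher in HB (1807 against 1401 RPM), while miR-133-3p and miR-206-3p were lower in HB. Their part in the levels of the miR-221 and miR-222 arms was not tested.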

How the data were processed

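Small RNA of 18 to 30 nt was gel-purified and sequenced on the Illumina/Solexa platform from 4 pools, each of RNA from 3 bats, with both tissues taken from the same bats. Adapters and poor reads had been removed, and for each library the authors deposited every distinct clean tag beside its raw count, not normalized. Their mature sequences came from tags matched to the *Myotis lucifugus* genome (Bowtie), miRBase and hairpin criteria. They considered the most represented length variant of a miRNA.

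Here, the names and sequences of the listed miRNAs (77 bat-specific, the rest conserved) were looked up among the tags by 4 rules: the identical tag, tags that begin with its first 18 nt, and tags that contain its bases 2 to 17 or 5 to 18. A tag can match more than 1 miRNA under the wider rules. RPM is reads per 1000000 clean reads. Log2 ratios were scaled by TMM (edgeR 4.0.16) over all listed miRNAs, with Clopper-Pearson intervals, and arm balance is the odds ratio of 5p to 3p reads with an exact conditional interval (SciPy 1.17.1). When miRNAs were counted by log2 ratio, a library at 0 reads was given a floor of 3 reads. When hairpins were ranked and counted by arm balance, 0.5 was added to each count instead. No test was run: with 1 library per group, a difference within a tissue has no replicate, and a model of state over both tissues would leave 1 residual degree of freedom. Alternatives were scaling by clean reads, by DESeq2 1.42.0 size factors, by TMM over the conserved miRNAs or over those with 10 or more reads, and the other count rules. The members and lists were chosen with earlier results of these data known. The named miRNAs were the members, miR-221-3p, up to 3 hairpins with a larger shift in arm balance, the 3 most like miRNAs per member (0.5 added to each count) and the marker lists. In simulated counts with 4-fold differences, the script recovered 60 of 60 in each tissue at a log2 ratio of 1. There, 4 of 93 unchanged miRNAs in brain and 0 of 77 in WAT also reached 1. The true value lay in 94.8% (brain, 153 miRNAs) and 94.9% (WAT, 137 miRNAs) of the intervals. The simulated counts had Poisson counting error only, with no spread between bats or libraries. These values therefore check the script and are not error rates for the real libraries. R 4.3.3, Python 3.11.15 and ViennaRNA 2.7.2 (duplex pairing) were used.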

Additional observations from a re-analysis of the deposited data

Results flagged for a closer look

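miR-222-3p had opposite signs in the tissues, with log2 ratios of −1.93 for HB over AB and 0.65 for HA over AA. The sign in each tissue was kept under the 4 scalings and 4 other count rules tried. Of those rules, the most read tag is the listed tag itself for miR-222-3p, so it could not differ. The listed miR-221-5p tag also had opposite signs, 1.05 in brain and −1.09 in WAT, but the WAT value was positive under the 4 wider or other count rules. With 1 library per group, the difference between the tissues was not tested in either case. The most read miR-221-3p tag, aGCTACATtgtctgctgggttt, is outside the listed sequences and had 26420 reads over the 4 libraries, above the 3 reads that a count of 0 allows.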

How the results depend on the processing

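No paired analysis was possible because each group had 1 library, and for the same reason no library could be left out. Of the 20 main values, 71 alternatives stayed within the counting interval, 53 moved beyond it and 4 reversed the sign of a log2 ratio of 1 or more. The 71 include the most read tag of miR-222-3p, which is its listed tag and could not differ. The counts of miRNAs at a log2 ratio of 1 or more stayed within 1.5 times the reported count in all 24 alternatives, but the share of higher ones moved by over 10 percentage points: in brain it was 56.5% and became 41.3% with clean reads, 66.2% with the conserved miRNAs and 42.9% with the first 18 nt, and in WAT it was 41.4% and became 29.9% and 72.9% with the first 2 of these. The cause of the changes was not tested, except that a scaling moves every ratio of a pair alike. TMM was computed anew on the counts of each wider rule, so a change of rule also changed the scaling. For HB over HA, miR-222-3p had 5843 and 15613 reads by bases 2 to 17 and a log2 ratio of −1.78. By bases 5 to 18 it had 5848 and 15627 reads and −1.17, a move that came with the scaling.

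For miR-222-3p, scaling by clean reads gave log2 ratios of −2.22 (HB over AB), 0.30 (HA over AA), −1.35 (HB over HA) and 1.18 (AB over AA). TMM over the conserved miRNAs gave −1.80, 1.43, −1.34 and 0.99, and DESeq2 size factors gave 0.90 (HA over AA), −1.28 (HB over HA) and 1.27 (AB over AA). The first 18 nt gave −1.54 (HB over AB), −1.61 (HB over HA) and 0.35 (AB over AA). Bases 2 to 17 gave −1.44, 0.56, −1.78 and 0.36, and bases 5 to 18 gave −1.41, 0.51, −1.17 and 0.45, in the first order. For miR-222-5p, the conserved miRNAs gave 3.04 (HA over AA), bases 2 to 17 gave −1.13 (HB over HA), and the most read tag gave −1.75 (HB over HA) and −1.96 (AB over AA).

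For miR-221-5p, the first 18 nt gave 0.18 (HB over AB), 1.12 (HA over AA), 1.39 (HB over HA) and 2.07 (AB over AA). In the same order, bases 2 to 17 gave 0.26, 1.0, 1.18 and 2.06, bases 5 to 18 gave 0.29, 0.95, 1.80 and 2.16, and the most read tag gave 0.27, 1.37, 1.11 and 2.16. Each of these 4 values for HA over AA reversed the −1.09 of the listed tag.

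The miR-222 balance of HB over AB was 3.11, 3.12 and 3.08 with the first 18 nt, bases 2 to 17 and bases 5 to 18, and with these the 5p share was 4.37, 4.31 and 4.30% in HB and 2.79, 2.78 and 2.79% in HA. The most read tags gave shares of 4.23% (HB), 0.229% (AB), 5.21% (HA) and 1.86% (AA), and balances of −0.31 for HB over HA, where the sign differed, and −3.04 for AB over AA. The most read tag rule was added after seeing the data. The lowest counts, 12 to 35 reads of miR-222-5p in AB and AA and 19 of miR-221-5p in HA, set the widest intervals.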
